A study of Rattus norvegicus with 68 samples.

Results

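A set of 73 genes in rat nasal epithelium was lower than in air controls after 5 d of formaldehyde at 15 ppm and higher than in air controls after 13 w at the same concentration. The set was chosen on measured values among 14217 genes. Each gene was represented by its brightest probe set, the group mean at 15 ppm had to lie at least 0.3 log2 units below that at 0 ppm after 5 d and at least 0.3 above it after 13 w, and the highest group mean had to reach 6 on the log2 scale. Of 11748 genes above that signal limit, 2515 met the 5 d condition, 2687 met the 13 w condition and 75 met both. Akr1c3 and Defb4 were left out by name, which gave 73 members. Most of the genes that were lower at 5 d were also lower at 13 w (1727), and 713 were within 0.3 of the control by then.

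RNA was hybridised to Affymetrix Rat230_2 arrays, each with the nasal epithelial cells of 1 male F344/CrlBR rat, 8 weeks old at the start. The 68 arrays formed 17 groups of 4 animals. Exposure was of the whole body, on 5 days of the week and for 6 h each time, at 0, 0.7, 2, 6, 10 or 15 ppm for 5 d or 13 w, and at 0.7 to 15 ppm for 4 w; 0 ppm arrays of 4 w were not analysed here. The titles of the exposed samples carry HCHO, whereas those of the 0 ppm samples carry ACO1 at 5 d and ACO3 at 13 w, codes that the labels do not explain and that cannot be told apart from dose. For 19 of the 20 samples labelled 4 w the treatment field states 5 days, and the title and time tag were followed. The cells came from the lateral meatus and nasoturbinate of level II of the nose after protease digestion, with the maxilloturbinate and olfactory epithelium discarded. They are a bulk mixture, in which fewer cells of a type and less RNA per cell cannot be told apart.

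Formaldehyde is a reactive gas that is absorbed mostly in the upper airway of a rat, where it binds proteins and DNA. The transitional and respiratory epithelium of the anterior nose carries ciliated and mucous cells over basal cells, and under sustained irritation it can be replaced by a stratified squamous epithelium. Such an epithelium is built by basal cells that express the transcription factor p63, and it covers itself with keratins, protease inhibitors, barrier lipids and cornified proteins. Vitamin A derivatives oppose this change, and the enzyme CYP26A1 clears them. Glutathione, made through glutamate-cysteine ligase, takes part in formaldehyde oxidation.

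Values below are RMA signals on the log2 scale, on which a step of 1 is a doubling, and differences are given on the same scale as mean ± SE from a limma fit with 4 animals in each group. The 0 and 15 ppm arrays of 5 d and 13 w chose the members, so their values are described without a test. Tests used the other arrays, with the 0.7 ppm group as reference: 10 ppm at each time and 15 ppm at 4 w. Calls required a Benjamini-Hochberg adjusted p, over all 14217 genes, of less than 0.05. The 4 w comparisons of 10 and 15 ppm share their 0.7 ppm arrays, and are therefore set side by side without an overlap.

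The values that chose the members were mostly modest. Each was read against the 0 ppm group of the same time, and that reference also differed between the times. From 5 d to 13 w the 0 ppm mean changed by -1.51 in Tubb2b, -1.36 in C20h6orf15 and 0.78 in Ocm. In Sox11, Tubb2b, Ctnna2 and PCOLCE2 the 15 ppm mean was not higher at 13 w than at 5 d (Sox11: 6.00 at 5 d and 5.68 at 13 w). Fads2b, a fatty acid desaturase, lay furthest below its control at 5 d, by 1.12, with 7.20, 7.34, 7.55 and 8.40 at 15 ppm and 8.54, 8.56, 8.70 and 9.17 at 0 ppm. These groups of Fads2b did not overlap. C20h6orf15, the rat counterpart of a small secreted protein gene near the human psoriasis locus, lay furthest above its control at 13 w, by 3.82. At 13 w it read 13.06, 13.52, 13.67 and 13.70 at 15 ppm and 8.72, 8.95, 9.49 and 11.49 at 0 ppm. At 5 d its 15 ppm arrays (9.57, 10.57, 10.73 and 11.67) overlapped the 0 ppm arrays (9.52, 10.93, 11.60 and 12.05). For 60 of the 73 members the group of 15 ppm and 13 w had the highest mean of all 17 groups. The rule chose members that are high in that group, so this count describes the choice and is no separate result. Just inside the 5 d limit were Fbxl20 at -0.30, Arsl at -0.30 and Pnpla3 at -0.31, and just outside were Slc15a1 at -0.30, Mios at -0.30 and Cyb561d1 at -0.29. Just inside the 13 w limit were Pla2g3 at 0.30, Fbxl20 at 0.31 and Muc4 at 0.33, and just outside were Nt5c2 at 0.30, Tlcd1 at 0.30 and Pgd at 0.29. Slc15a1, an oligopeptide transporter, missed the 5 d limit narrowly although it stood 2.03 above the control at 13 w. Its 5 d difference rested on a single high control array. The 0 ppm arrays of 5 d read 5.145, 5.36, 5.399 and 6.694, and the 15 ppm arrays 5.233 to 5.526, mostly dim.

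**Figure D1:**
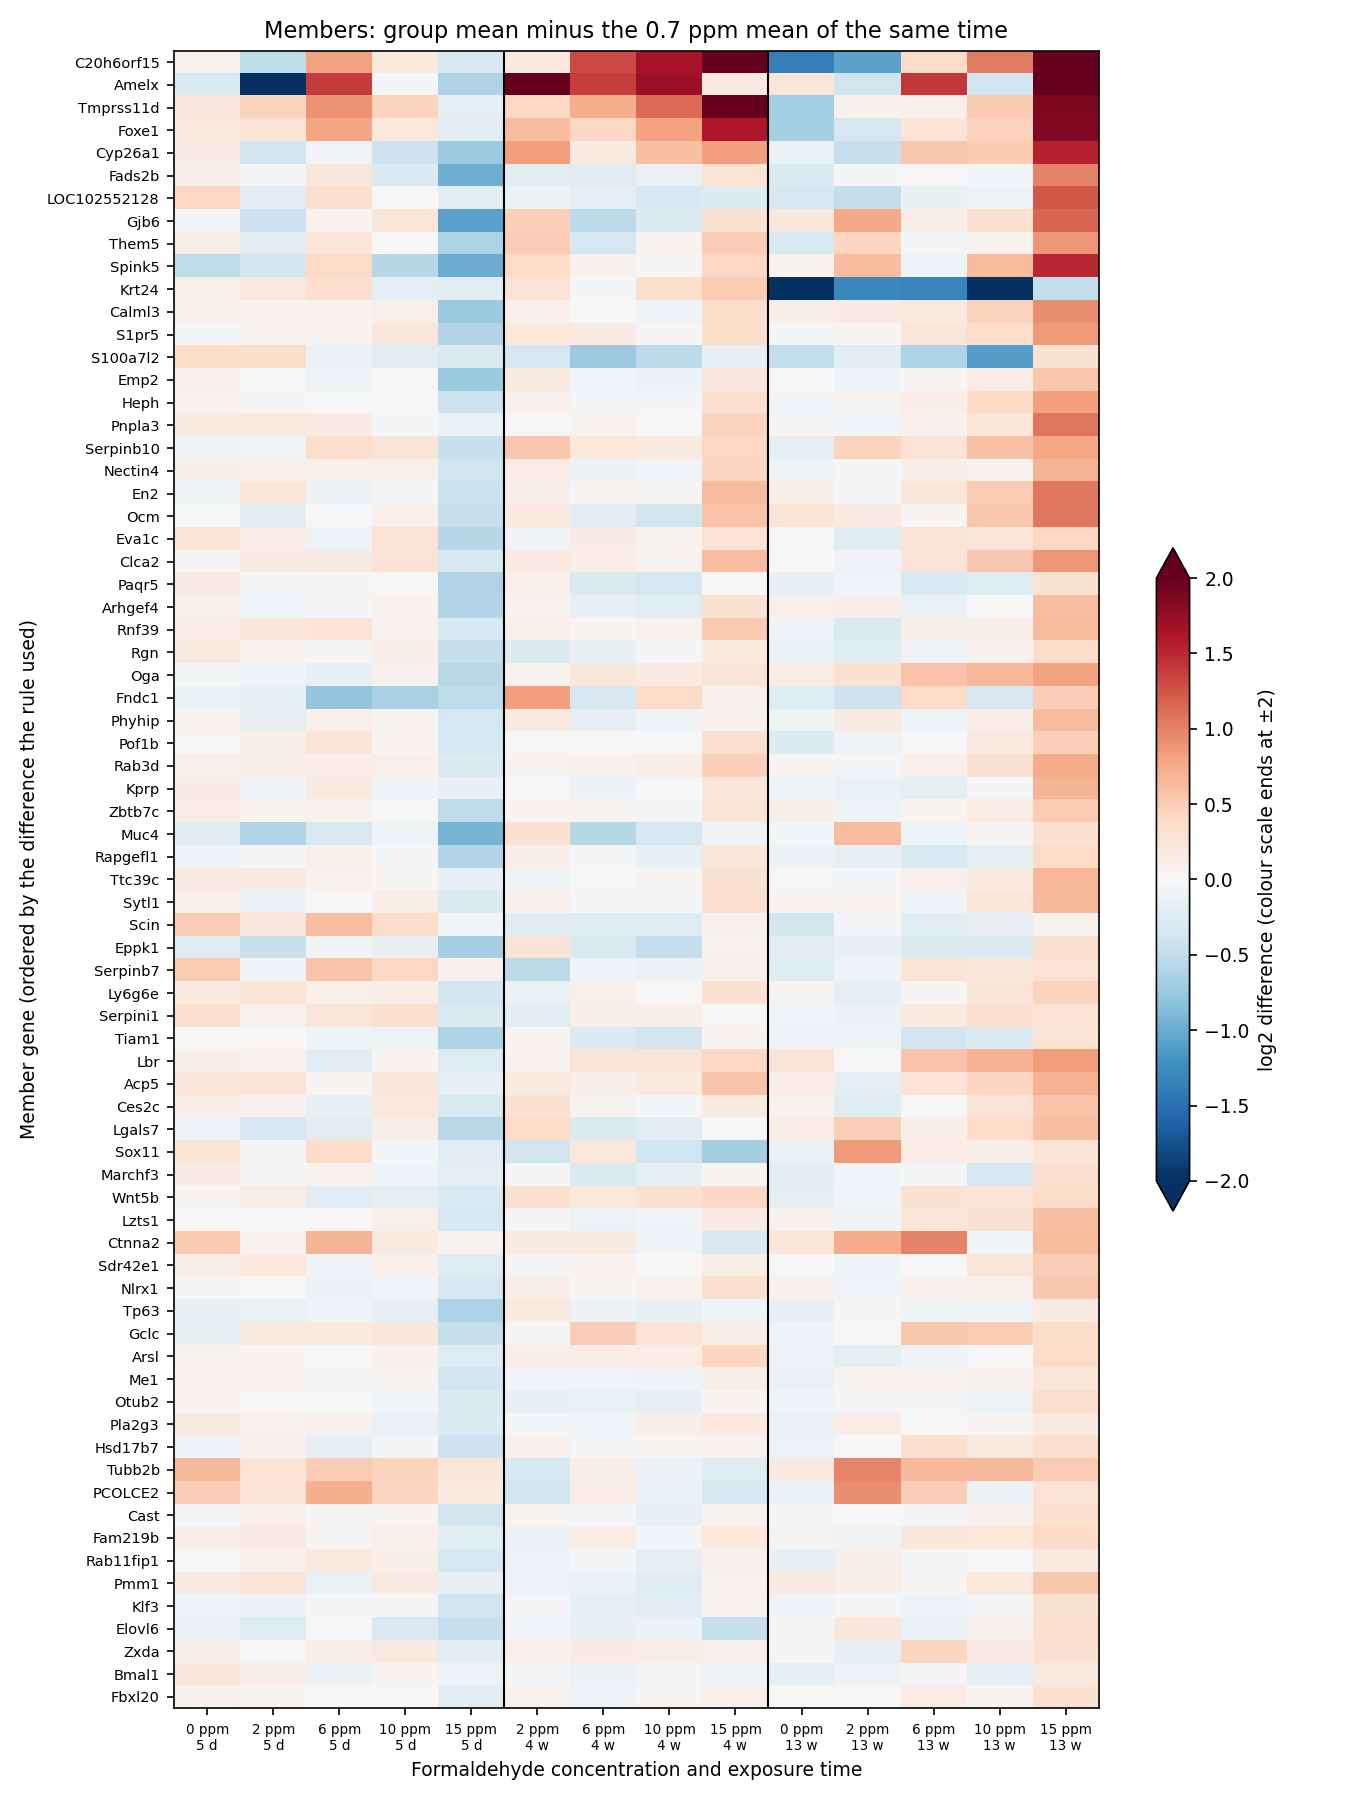
Group mean minus the mean of the 0.7 ppm group of the same time, for each of the 73 members (rows, ordered by the difference between the responses that the rule used) and each other group (columns; log2 units, colour scale ending at ±2, n = 4 animals per group). The column of 15 ppm and 5 d is mostly blue and that of 15 ppm and 13 w mostly red; the columns of 10 ppm at 5 d and 4 w are pale apart from a few rows.

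Against 0.7 ppm instead of 0 ppm, 69 members were lower at 15 ppm after 5 d by some amount and 72 higher after 13 w. The step of 0.3 was met by 44 at 5 d, by 60 at 13 w and by 40 at both. With 0.7 ppm as the reference the same rule would have chosen 81 genes, 40 of them shared with the 73. LOC102552128 and S100a7l2 reached the signal limit of 6 in the 15 ppm 13 w group alone, so they could enter only through the group in which they are high. LOC102552128 also owed its 5 d value to a single control: animal 208 read 6.43 where the other 0 ppm arrays read 4.41 to 4.61, and without it the difference at 15 ppm was -0.15. A total of 24 members had further probe sets, 37 in all, of which 23 had both signs of the rule and 14 met both steps. No further probe set of Oga, Ttc39c, Serpini1, Tp63, Cast, Fam219b or Rab11fip1 had both signs.

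Array medians ran from 6.82 to 6.96, and arrays of a group correlated across probe sets at 0.977 to 0.996. Cell type markers moved with the conditions that chose the members. The summed linear signal, in kilounits of array signal, of 9 neutrophil markers ran from 1.49 to 5.66 kilounits in the 5 d controls and from 19.74 to 30.96 kilounits at 15 ppm and 5 d, against 0.99 to 4.19 and 1.89 to 5.66 kilounits in the same groups of 13 w. That of 11 squamous markers ran from 17.13 to 40.98 kilounits at 0 ppm and 48.45 to 78.64 kilounits at 15 ppm after 5 d, and from 18.78 to 30.26 and 101.69 to 128.94 kilounits after 13 w. Macrophage markers (16) summed to 29.0 to 34.33 kilounits at 0 ppm and 54.8 to 67.94 at 15 ppm after 5 d. After 13 w, ciliated markers summed to 11.08 to 15.41 at 0 ppm and 6.14 to 9.84 at 15 ppm, and 13 secretory markers to 100.02 to 106.75 and 72.04 to 85.85. The 11 ciliated and 10 olfactory neuron markers had means above 6 in every group, although the olfactory lining was discarded. The difference of the 3' and 5' beta-actin control probe sets, a measure of RNA integrity on the array, was 2.42 to 2.59 at 15 ppm against 1.43 to 1.89 at 0 ppm after 5 d, and 1.65 to 1.84 against 1.47 to 1.73 after 13 w. RNA integrity numbers were 8.1 to 8.8 at 15 ppm and 7.5 to 8.1 at 0 ppm after 5 d, and 8.6 to 9.3 and 7.3 to 7.7 after 13 w, on 3 arrays each. The part of these in the members' values was not tested.

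On arrays that the rule did not use, the members shifted upward at 15 ppm after 4 w and at 10 ppm after 13 w, and hardly at 10 ppm after 5 d or 4 w. At 15 ppm after 4 w, 19 members (26.0%) rose and 1 fell, where 21.3% of all genes were called higher and 16.1% lower, so the share of members called higher was near the background and the share called lower was well below it. Their median difference was 0.21 against 0.01 for all genes, and 61 of 73 were above 0 (83.6%, against 51.9% of all genes). Leaving out the 0.7 ppm animal 243, the 15 ppm animal 368 or the 15 ppm animal 369 left 11, 12 and 11 members called higher; without the 0.7 ppm animal 242 or the 15 ppm animal 368 no member was called lower. At 10 ppm after 13 w, 10 members (13.7%) rose and 2 fell, beside 14.3% and 12.8% of all genes, with a median of 0.15 against -0.01. That count of 10 was 6 without the 0.7 ppm animal 257, 5 without the 0.7 ppm animal 260, 4 without the 10 ppm animal 341 and 4 without the 10 ppm animal 349.

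After 5 d at 10 ppm the limma fit called 0 members in either direction, where 14.5% of all genes were called higher and 6.13% lower. An unadjusted p under 0.05 was met by 4 members, beside 31.2% of all genes. Without the 10 ppm animal 324, 3 members were called higher. The median of the members was 0.06. At 10 ppm after 4 w, 0 members rose and 1, Tiam1, fell, where 9.03% of all genes were called higher and 5.75% lower. There 8 members had an unadjusted p under 0.05, beside 27.2% of all genes. The median there was -0.02. Without the 0.7 ppm animal 242, the 10 ppm animal 331 or the 10 ppm animal 336 between 1 and 2 members were called higher, and without any of these or the 0.7 ppm animal 250 Tiam1 was not called. The change of the 10 ppm response between 5 d and 13 w was tested as an interaction. It gave 0 calls among the members, beside 0.0703% of all genes in each direction. An unadjusted p under 0.05 was met by 6 members and by 11.6% of all genes. A turn from lower to higher like the one chosen at 15 ppm was therefore not detected at 10 ppm with 4 animals per group.

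**Figure D2:**
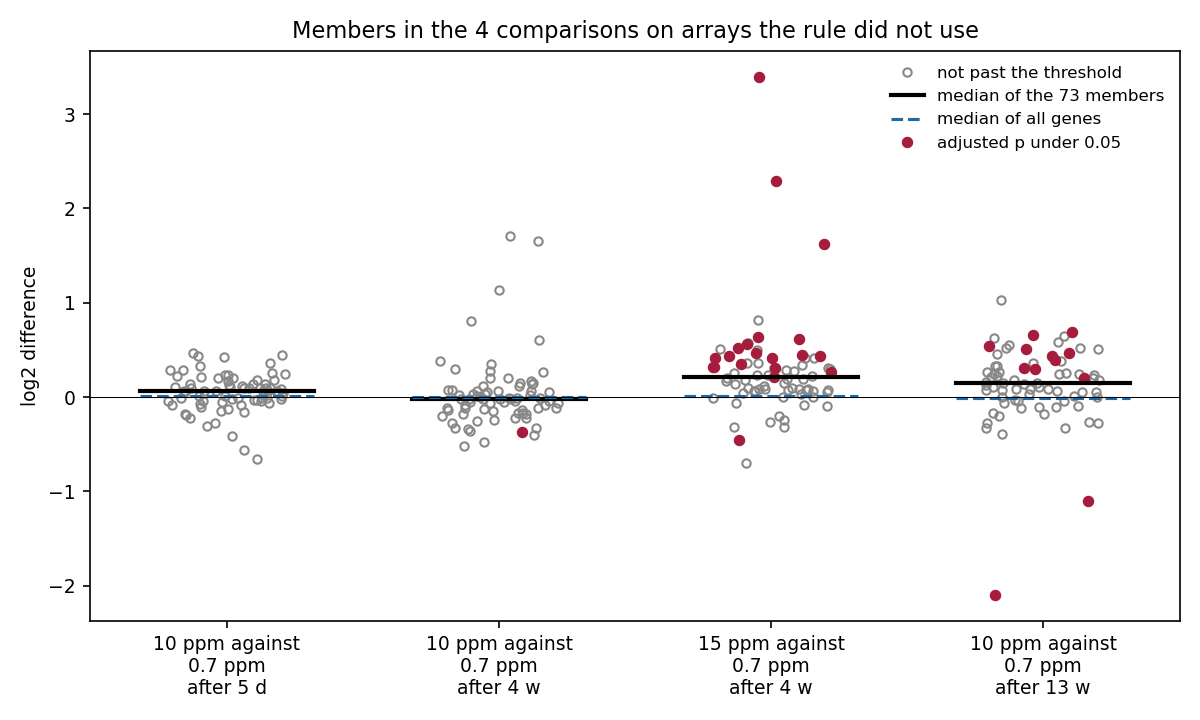
Difference from 0.7 ppm of each of the 73 members (points, log2 units) in the 4 comparisons on arrays the rule did not use, with filled points at an adjusted p under 0.05 (limma). The heavy line marks the members' median (0.06, -0.02, 0.21 and 0.15 from left to right) and the dashed line that of all 14217 genes; C20h6orf15, Tmprss11d and Foxe1 stand highest at 15 ppm after 4 w, and Krt24 and S100a7l2 lowest at 10 ppm after 13 w.

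Other classes of response gave the scale for these shifts. The 1727 genes that were lower at both times at 15 ppm had a median of -0.51 at 15 ppm after 4 w, and 77.8% of them were called lower there. The 713 genes lower at 5 d and within 0.3 of the control at 13 w had a median of -0.18, with 25.2% called lower and 0 called higher. The 1166 genes that were within 0.3 at 5 d and higher at 13 w had a median of 0.32, with 69.0% called higher. The members' median of 0.21 lay between the latter classes. After 5 d at 10 ppm the medians were -0.22, -0.06 and 0.22 for the 3 classes and 0.06 for the members. The classes were cut on the 15 ppm arrays of 5 d and 13 w and their differences were not tested.

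**Figure D3:**
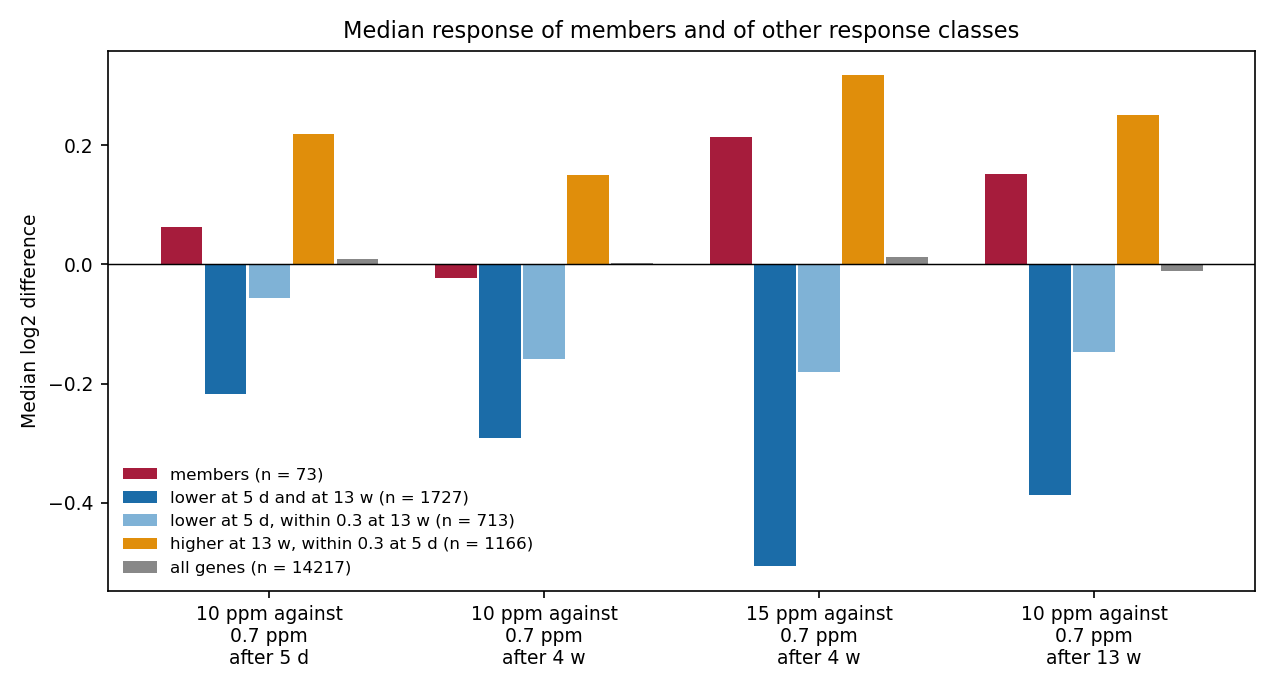
Median log2 difference from 0.7 ppm (bars from 0) of the 73 members and of 3 other classes cut on the same 15 ppm and 0 ppm arrays, with all genes, in the 4 comparisons on other arrays. The members' bars stand at 0.06, -0.02, 0.21 and 0.15, between those of the genes lower at 5 d and within 0.3 at 13 w and those of the genes higher at 13 w and within 0.3 at 5 d.

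A total of 15 members belong to barriers and stratified epithelia, by a grouping made by hand after the members were known. Of these, 3 rose at 15 ppm after 4 w (Tmprss11d, Nectin4 and Pof1b), where 21.3% of all genes were called higher. There 13 were above 0, with a median of 0.30. At 10 ppm after 13 w, 1 rose (Calml3) and 2 fell (Krt24 and S100a7l2), beside 14.3% and 12.8% of all genes. Tmprss11d, the human airway trypsin-like protease of the airway surface, read 8.33, 8.53, 8.98 and 9.08 at 15 ppm after 4 w and 5.34, 6.47, 6.89 and 7.07 at 0.7 ppm. The groups did not overlap, and the difference of 2.29 ± 0.42 had a limma adjusted p = 1.29e-05. At 10 ppm after 4 w the values were 6.44, 7.12, 7.56 and 9.16, so that a single array lay in the range of 15 ppm, and the difference of 1.13 ± 0.42 missed the threshold (adjusted p = 0.059). After 13 w at 10 ppm Tmprss11d stood 0.52 ± 0.42 above 0.7 ppm (adjusted p = 0.42). After 5 d its 15 ppm arrays (6.244, 6.404, 6.681 and 7.699) overlapped the 0 ppm arrays (6.35, 6.84, 7.46 and 8.01), and the highest mean of that time was at 6 ppm (7.21 to 8.34).

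Nectin4, a cell adhesion molecule of adherens junctions, rose by 0.43 ± 0.16 at 15 ppm after 4 w (adjusted p = 0.024). The other Nectin4 probe sets differed by 0.30 and -0.02 there. At 10 ppm after 13 w Nectin4 was 0.08 ± 0.16 above 0.7 ppm. Pof1b, an actin-binding protein of desmosomes and tight junctions, rose by 0.32 ± 0.12 (adjusted p = 0.035), a call that was lost in 5 of 8 fits that left out 1 array. Calml3, a calmodulin of stratified epithelial cells, was among the brightest members. At 10 ppm after 13 w it read 12.70, 12.83, 12.87 and 13.18 against 12.06, 12.51, 12.52 and 12.63 at 0.7 ppm, a rise of 0.46 ± 0.18 (adjusted p = 0.047) that was lost in 6 of 8 fits with 1 array left out. Calml3 at 15 ppm showed the pattern of the rule without overlap at either time: 11.56 to 12.27 against 12.29 to 12.79 at 5 d, and 13.27 to 13.43 against 12.27 to 12.84 at 13 w.

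Spink5 encodes LEKTI, an inhibitor of the kallikreins that shed cornified cells. The kept probe set of Spink5 read 9.13, 10.41, 11.24 and 11.30 at 0.7 ppm after 4 w and 10.69, 10.83, 10.98 and 11.22 at 15 ppm, inside that range, and did not pass (0.41 ± 0.41, adjusted p = 0.48). The other Spink5 probe sets had larger differences there, of 1.65 and 1.60, while at 15 ppm after 5 d all 3 were below the control by 0.47 to 0.54. Gjb6, the gap junction protein connexin 30, spread from 7.19 to 10.18 at 0.7 ppm after 4 w alone, and its differences at 15 ppm after 4 w (0.30 ± 0.47) and 10 ppm after 13 w (0.33 ± 0.47) did not pass. Emp2, Serpinb10, Kprp, Eppk1, Serpinb7, Lgals7 and Cast passed in neither comparison, with differences between -0.01 and 0.42 at 15 ppm after 4 w. These are the kept probe sets, and the other Cast probe sets differed by 0.037 and -1.165 there. Lgals7, a galectin of stratified epithelia, had a high level in every condition and a difference of -0.01 ± 0.33.

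Krt24, a type I keratin, and S100a7l2, an S100 calcium-binding protein gene, were the 2 members called lower at 10 ppm after 13 w. In that comparison 19 of the 73 members were below 0. Krt24 read 4.52, 4.53, 4.70 and 4.79 there and 4.93, 6.30, 6.71 and 8.98 at 0.7 ppm, a fall of 2.10 on the log2 scale (SE 0.46, adjusted p = 3.2e-04). The 0 ppm arrays of 13 w read 4.59 to 4.77, as low as those at 10 ppm, and the means differed by -0.06. With only the groups of this contrast in the fit the call was lost (adjusted p = 0.066). S100a7l2 read 4.421, 4.645, 4.790 and 4.803 at 10 ppm and 5.51, 5.69, 5.80 and 6.08 at 0.7 ppm, a fall of 1.10 (SE 0.25, adjusted p = 4.8e-04), and its mean at 10 ppm differed by -0.61 from that at 0 ppm. At 0.7 ppm both were higher at 13 w than at 5 d, Krt24 by 1.68 ± 0.46 (adjusted p = 0.039) and S100a7l2 by 1.27 ± 0.25 (adjusted p = 0.0033). Both had means under 6 in most groups, close to the dim end of the array.

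C20h6orf15 and Foxe1 behaved much like Tmprss11d. After 4 w at 15 ppm C20h6orf15 read 12.42, 12.66, 12.71 and 13.10, all above the 0.7 ppm arrays at 7.44, 7.65, 10.91 and 11.30. The rise was 3.40 ± 0.79 (adjusted p = 4.3e-04), on a reference that itself spread over almost 4 units. After 13 w at 10 ppm it read 11.68, 11.72, 12.11 and 12.69 against 10.20, 11.11, 11.27 and 11.52 at 0.7 ppm, without overlap, and yet the difference of 1.03 ± 0.79 did not pass (adjusted p = 0.39). Foxe1, a forkhead transcription factor of thyroid, palate and hair follicle development, read 7.97, 7.98, 8.15 and 8.78 at 15 ppm after 4 w and 6.34, 6.47, 6.75 and 6.84 at 0.7 ppm. It rose by 1.62 ± 0.31 (adjusted p = 2.9e-05), and by 0.80 ± 0.31 without passing at 10 ppm after 4 w (adjusted p = 0.074), where its values ran from 6.32 to 8.66. The calls of these 3 genes at 15 ppm after 4 w held in each of the 11 alternative settings and the 8 fits with 1 array left out.

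**Figure D4:**
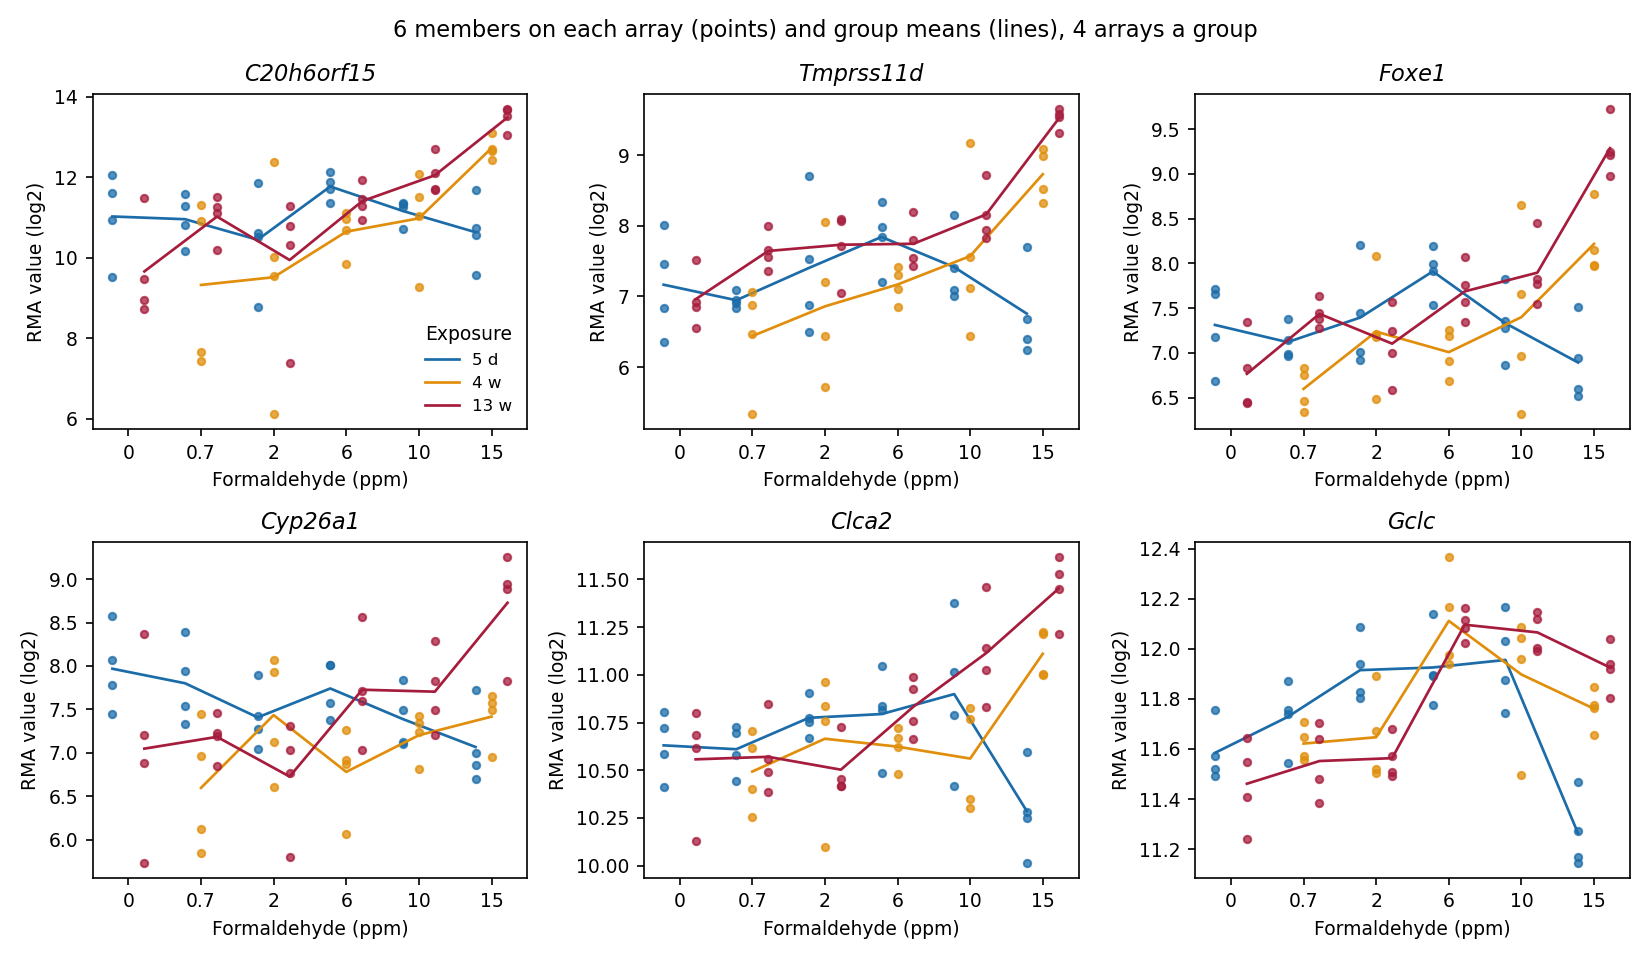
RMA log2 values of 6 members on each array (points) with group means (lines), by formaldehyde concentration and exposure time, 4 arrays per group and 0 ppm absent at 4 w. C20h6orf15, Tmprss11d and Foxe1 are highest at 15 ppm after 4 w and 13 w, Cyp26a1 is highest at 15 ppm after 13 w, Clca2 turns from the lowest mean at 5 d to the highest at 13 w, and Gclc at 5 d is above the control up to 10 ppm and below it at 15 ppm.

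Of 10 members that act in transcription, chromatin or the nucleus, 4 rose at 15 ppm after 4 w (Foxe1, En2, Lbr and Oga). At 10 ppm after 13 w 2 rose (Oga and Lbr). These counts stand beside 21.3% and 14.3% of all genes called higher. Oga removes O-linked N-acetylglucosamine from proteins. At 10 ppm after 13 w it read 9.69, 9.80, 9.88 and 9.92 against 8.75, 9.28, 9.29 and 9.36, a rise of 0.66 ± 0.10 (adjusted p = 4.4e-07), the smallest p among the members. At 15 ppm after 5 d the kept probe set read 8.75, 8.82, 8.84 and 9.09, below every 0 ppm array (9.35 to 9.42). The other Oga probe sets stood 0.43 and 0.55 above the control there and 1.17 and 1.03 above it at 13 w. Its rise at 15 ppm after 4 w (0.26 ± 0.10, adjusted p = 0.029) was lost in 5 of 8 fits with 1 array left out. Like several other members, Oga is a member by its brightest probe set alone, while its probe sets shared a direction at 10 ppm after 13 w (0.66, 0.95 and 0.84).

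Lbr, the lamin B receptor of the inner nuclear membrane and a sterol reductase, rose by 0.41 ± 0.14 at 15 ppm after 4 w (adjusted p = 0.013) and by 0.69 ± 0.14 at 10 ppm after 13 w (adjusted p = 7.4e-05). In the latter its arrays read 6.85 to 7.01 against 5.80 to 6.67, so Lbr was a dim gene with groups that did not overlap. En2, a homeobox factor, rose by 0.64 ± 0.24 at 15 ppm after 4 w (adjusted p = 0.029). Tp63, the p63 gene of basal cells, did not pass at 15 ppm after 4 w (-0.09 ± 0.10, adjusted p = 0.53) or at 10 ppm after 13 w (-0.09 ± 0.10, adjusted p = 0.55). After 5 d at 15 ppm the Tp63 arrays read 9.89, 10.04, 10.07 and 10.12, below all 0 ppm arrays (10.36 to 10.59). Its second probe set, dim with a highest group mean of 5.32, was 0.18 above the control. Klf3, a repressor of the Krüppel-like family, and Bmal1, a core factor of the circadian clock, did not pass, with differences of 0.08 ± 0.11 and -0.09 ± 0.12 at 15 ppm after 4 w.

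The 12 members of lipid, retinoid and redox metabolism were above 0 in 11 cases both at 15 ppm after 4 w and at 10 ppm after 13 w, with medians of 0.16 and 0.19. Over all genes, 51.9% and 47.9% were above 0. Few of the 12 passed: Pnpla3 rose and Elovl6 fell at 15 ppm after 4 w, and Gclc rose at 10 ppm after 13 w. Of all genes, 21.3% were called higher and 16.1% lower in the former comparison, and 14.3% higher in the latter. Pnpla3, a lipase and acyltransferase that also acts on retinyl esters, rose by 0.44 ± 0.13 (adjusted p = 0.0066) on its kept probe set. The other Pnpla3 probe sets differed by 0.045 and 0.114 there, the latter dim with a highest group mean of 5.22. Elovl6, the elongase of saturated C16 fatty acids, read 9.13, 9.43, 9.47 and 9.47 against 9.70, 9.75, 9.80 and 10.08 at 0.7 ppm. It fell by 0.46 on the log2 scale (SE 0.15, adjusted p = 0.013), without overlap, and at 10 ppm after 13 w it stood 0.08 ± 0.15 above 0.7 ppm. Them5, an acyl-CoA thioesterase, and Fads2b did not pass in either comparison (0.51 ± 0.36 and 0.27 ± 0.23 at 15 ppm after 4 w).

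Cyp26a1 read 6.95, 7.49, 7.57 and 7.66 at 15 ppm after 4 w against 5.85, 6.13, 6.96 and 7.45 at 0.7 ppm, overlapping, and the difference of 0.82 ± 0.38 did not pass (adjusted p = 0.084). The difference of Cyp26a1 after 13 w at 10 ppm was 0.52 ± 0.38 (adjusted p = 0.35). The 15 ppm arrays that chose it read 6.693, 6.856, 6.999 and 7.720 after 5 d (7.45, 7.78, 8.07 and 8.58 at 0 ppm) and 7.83, 8.88, 8.95 and 9.25 after 13 w (5.74, 6.88, 7.21 and 8.37 at 0 ppm). Cyp26a1 is known as a target of the retinoic acid receptor, so the 250 bases before its start are shown, from RefSeq on GRCr8 (chr1:244883572-244883821, plus strand), with each TGAACT in capitals. On the opposite strand these are AGTTCA, a binding motif of that receptor, at 92 and 81 bases before the start, with 5 bases between them.
Cyp26a1: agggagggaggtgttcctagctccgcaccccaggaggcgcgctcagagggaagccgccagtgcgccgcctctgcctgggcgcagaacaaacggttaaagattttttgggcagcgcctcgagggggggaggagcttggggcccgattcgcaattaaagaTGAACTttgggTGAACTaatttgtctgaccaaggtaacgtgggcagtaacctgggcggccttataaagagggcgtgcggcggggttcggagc
The search for AGTTCA was added after the data were seen and covered both strands. It is in the 250 bases before the start of 13.1% of all 27457 genes with a promoter in the table and of 14 of the 63 members with one (22.2%).

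Gclc encodes the catalytic subunit of glutamate-cysteine ligase. At 5 d it read 11.75, 11.88, 12.03 and 12.17 at 10 ppm, with the lowest of them just under the highest 0 ppm array. At 15 ppm it read 11.15, 11.17, 11.27 and 11.47, below all 0 ppm arrays (11.49, 11.52, 11.57 and 11.76). Serpinb10, S1pr5, Rapgefl1, Rab11fip1 and Cast also had 5 d means above that of 0 ppm from 0.7 to 10 ppm and below it at 15 ppm. After 13 w at 10 ppm Gclc read 11.991, 12.003, 12.121 and 12.148 against 11.39, 11.48, 11.64 and 11.70, a rise of 0.51 ± 0.10 (adjusted p = 9.1e-05). It also rose at 6 ppm, by 0.49 ± 0.10 after 4 w (adjusted p = 0.0026) and 0.54 ± 0.10 after 13 w (adjusted p = 2.1e-04). At 15 ppm after 4 w it read 11.66 to 11.85 against 11.56 to 11.71 and did not pass (0.14 ± 0.10, adjusted p = 0.31). Among the 26 measured Nrf2 target and glutathione genes, of which Gclc is the only member, 13 rose and 6 fell at 15 ppm after 4 w, and 16 rose and 3 fell at 10 ppm after 13 w. The shares of all genes called higher and lower were 21.3% and 16.1% in the former comparison and 14.3% and 12.8% in the latter. Me1, the cytosolic malic enzyme that makes NADPH, and Ces2c, a carboxylesterase, did not pass (0.12 ± 0.09 and 0.17 ± 0.19 at 15 ppm after 4 w).

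The 8 members of secretion and membrane traffic were grouped by hand as above, and their counts stand beside 21.3% of all genes called higher at 15 ppm after 4 w and 14.3% at 10 ppm after 13 w. The group is loose, as Clca2, Heph and Acp5 are described below by other roles, and its counts are no measure of secretion. After 4 w at 15 ppm 4 rose (Rab3d, Clca2, Acp5 and Sytl1), and at 10 ppm after 13 w 4 rose (Clca2, Heph, Rab3d and Acp5) and all 8 were above 0. Clca2, a membrane protein of basal and stratified epithelial cells named after chloride channel regulation, read 10.998, 11.006, 11.214 and 11.223 at 15 ppm after 4 w and 10.25, 10.40, 10.61 and 10.71 at 0.7 ppm. It rose by 0.62 ± 0.16 (adjusted p = 0.0014), and by 0.54 ± 0.16 at 10 ppm after 13 w (adjusted p = 0.0070), where 10.83 to 11.46 overlapped 10.38 to 10.85 at the edge. Rab3d, a small GTPase of secretory granules, read 10.03, 10.08, 10.14 and 10.23 against 9.35, 9.62, 9.79 and 9.84 at 15 ppm after 4 w, a rise of 0.47 ± 0.12 (adjusted p = 0.0013). Its rise at 10 ppm after 13 w (0.31 ± 0.12, adjusted p = 0.047) was lost in 6 of 8 fits with 1 array left out. Sytl1, a Rab27 effector of exocytosis, rose by 0.35 ± 0.14 at 15 ppm after 4 w (adjusted p = 0.035).

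Acp5, the tartrate-resistant acid phosphatase, rose by 0.56 ± 0.17 at 15 ppm after 4 w (adjusted p = 0.0063) and by 0.44 ± 0.17 at 10 ppm after 13 w (adjusted p = 0.049). Heph, the ferroxidase hephaestin, read 10.34, 10.51, 10.53 and 10.54 at 15 ppm after 4 w against 9.83, 10.21, 10.26 and 10.27, without overlap, but did not pass there (0.34 ± 0.15, adjusted p = 0.064). It passed at 10 ppm after 13 w (0.40 ± 0.15, adjusted p = 0.035), a call lost in 4 of 8 fits with 1 array left out. Muc4, a membrane mucin, did not pass (-0.07 ± 0.32 and 0.03 ± 0.32). Its 15 ppm arrays of 5 d were tight and low, at 9.20, 9.24, 9.28 and 9.43, against 9.58 to 10.23 at 0 ppm. Muc4 and Clca2 belong to a list of 48 secretory and mucous genes. In it 4 rose and 7 fell at 15 ppm after 4 w, beside 21.3% and 16.1% of all genes.

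The upstream sequences of Tmprss11d, Clca2 and Serpinb7 are shown (RefSeq, GRCr8, 250 bases before the start, 5′ to 3′ on the gene's strand). They were chosen because Tmprss11d and Clca2 rose on arrays the rule did not use and each of the 3 holds TGANTCA, in capitals. TGANTCA is the pattern used here to search for AP-1 elements, with any base in the middle. That base is C in Tmprss11d, T in Clca2 and G in Serpinb7. In Serpinb7, a serpin of keratinocytes that passed no comparison above, TATAAA on either strand is in capitals too. The positions are chr14:22108279-22108528 (plus) for Tmprss11d, chr2:236682459-236682708 (minus) for Clca2 and chr13:23910056-23910305 (plus) for Serpinb7.
Tmprss11d: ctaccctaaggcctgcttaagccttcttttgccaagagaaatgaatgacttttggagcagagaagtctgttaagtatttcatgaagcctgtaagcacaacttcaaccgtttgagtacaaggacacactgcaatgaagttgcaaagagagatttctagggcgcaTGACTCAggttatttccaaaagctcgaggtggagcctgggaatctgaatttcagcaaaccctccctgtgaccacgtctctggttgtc
Clca2: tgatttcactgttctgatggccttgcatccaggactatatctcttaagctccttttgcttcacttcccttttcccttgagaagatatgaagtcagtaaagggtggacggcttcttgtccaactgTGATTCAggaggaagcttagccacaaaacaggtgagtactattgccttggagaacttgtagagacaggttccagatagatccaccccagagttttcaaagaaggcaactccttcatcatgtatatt
Serpinb7: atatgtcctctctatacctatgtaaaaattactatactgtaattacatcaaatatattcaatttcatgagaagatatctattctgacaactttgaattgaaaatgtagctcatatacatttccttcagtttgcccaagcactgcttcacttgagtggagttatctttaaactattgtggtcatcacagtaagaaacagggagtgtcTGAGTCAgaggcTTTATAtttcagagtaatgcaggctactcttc
The match begins 87, 126 and 44 bases before the start. TGANTCA, with any middle base, was in 8 of 63 members (12.7%) and in 7.0% of all genes. The antioxidant response core TGANNNNGC was in 41.3% and 36.6%, the dioxin response core GCGTG in 36.5% and 28.4%, CACGTG in 3.2% and 6.2%, GAAANNGAA in 7.9% and 8.7% and TATAAA in 12.7% and 14.1%. The related motifs AGGTCA and GGTTCA, also added after the data were seen, were in 15.9% and 14.8%, and in 6.3% and 10.5%. Both strands were searched, motifs may overlap, and a match is a match of letters.

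Of 12 members of signalling and the cytoskeleton, 2 rose at 15 ppm after 4 w: Wnt5b, a secreted Wnt ligand (0.41 ± 0.17, adjusted p = 0.045), and Nlrx1, a mitochondrial NOD-like receptor (0.32 ± 0.10, adjusted p = 0.0088). After 13 w at 10 ppm Lzts1, a leucine zipper tumour suppressor, rose by 0.30 ± 0.11 (adjusted p = 0.041). The call was lost in 5 of 8 fits with 1 array left out. Of all genes, 21.3% were called higher at 15 ppm after 4 w and 14.3% at 10 ppm after 13 w. Tiam1, an exchange factor that activates Rac1, was the member that fell at 10 ppm after 4 w, where 42 of the 73 were below 0. After 4 w at 10 ppm it read 8.79, 9.01, 9.19 and 9.22 against 9.33, 9.34, 9.51 and 9.52 at 0.7 ppm, a fall of 0.37 on the log2 scale (SE 0.12, adjusted p = 0.030). At 6 ppm after 13 w it read 9.08 to 9.33 against 9.47 to 9.78, a fall of 0.38 (SE 0.12, adjusted p = 0.031). At 15 ppm after 4 w the kept Tiam1 probe set, at 9.28 to 9.60, was back in the range of 0.7 ppm (0.06 ± 0.12, adjusted p = 0.76). The other Tiam1 probe sets differed by -0.26, 0.07 and 0.09 there, the last dim with a highest group mean of 4.38.

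The 10 and 15 ppm groups of 4 w were also compared directly, a comparison added after the data were seen that shares the 15 ppm arrays used above. There 7 members (9.59%) were higher at 15 ppm than at 10 ppm and 0 lower. Of all genes, 5.11% were called higher and 1.18% lower. An unadjusted p under 0.05 was met by 33 members and by 21.3% of all genes. Among the 73, 62 were above 0 and the median was 0.25. The 7 were Ocm, Tiam1, Clca2, Pnpla3, Arhgef4, Nectin4 and Fam219b. Ocm, the calcium-binding protein oncomodulin, read 9.86, 10.09, 10.26 and 10.29 at 15 ppm against 8.84, 9.14, 9.16 and 9.60 at 10 ppm, a difference of 0.94 ± 0.25 (adjusted p = 0.016). Tiam1 differed by 0.43 ± 0.12 (adjusted p = 0.024).

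The remaining 16 members have roles outside these groups or none stated here. Besides C20h6orf15, 4 rose at 15 ppm after 4 w: Arsl, an arylsulfatase (0.43 ± 0.13, adjusted p = 0.0073), Rnf39, a RING finger protein (0.52 ± 0.17, adjusted p = 0.011), Ttc39c (0.31 ± 0.12, adjusted p = 0.039) and Fam219b (0.21 ± 0.08, adjusted p = 0.021). The other Ttc39c probe set differed by -0.004 there. Fam219b also rose at 10 ppm after 13 w, by 0.20 ± 0.08 (adjusted p = 0.037). Its other probe set differed by 0.18 there, and at 15 ppm after 5 d it stood 0.297 above the control. Of all genes, 21.3% were called higher at 15 ppm after 4 w and 14.3% at 10 ppm after 13 w. Amelx, the enamel protein amelogenin, varied too widely for any comparison here: its SD within groups was 1.77, the rank 4 of 14217 genes, against a median of 0.15 over all genes and 0.24 over the members. Amelx spanned 5.54 to 14.51 over the 68 arrays, and at 15 ppm after 4 w its difference of 0.19 ± 1.22 turned to -0.70 without animal 362. Its 3 other probe sets had the same signs under the rule.

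At 6 ppm few members moved. After 5 d 1 rose and 0 fell, where 4.26% of all genes were called higher and 2.98% lower: Scin, an actin-severing protein, at 7.44, 7.51, 7.81 and 8.25 against 7.02, 7.11, 7.12 and 7.30 at 0.7 ppm (0.61 ± 0.17, adjusted p = 0.016). The 0 ppm arrays of 5 d, at 7.42 to 7.83, were as high as those of 6 ppm, and Scin at 0.7 ppm was 0.68 ± 0.17 higher after 13 w than after 5 d (adjusted p = 0.021). After 4 w 1 rose, Gclc, and 0 fell, beside 2.05% and 1.24% of all genes. After 13 w 5 rose and 1 fell (Tiam1), beside 7.18% and 3.72%: Oga by 0.57 ± 0.10 (adjusted p = 3.9e-05), Gclc, Zxda by 0.44 ± 0.10 (adjusted p = 0.0018), Lbr by 0.56 ± 0.14 (adjusted p = 0.0035) and Fam219b by 0.23 ± 0.08 (adjusted p = 0.040). At 2 ppm 0 members were called at any time. Over all genes 0 were called after 5 d and 13 w, and 1 lower and 2 higher after 4 w. An unadjusted p under 0.05 was met by 1, 6 and 4 members after 5 d, 4 w and 13 w. The shares of all genes were 8.44%, 8.16% and 6.89%. Between 13 w and 5 d at 0.7 ppm 3 members were higher (Krt24, S100a7l2 and Scin) and 0 lower, where 0.844% and 1.05% of all genes were called.

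Of the 19 members that rose at 15 ppm after 4 w and the 10 that rose at 10 ppm after 13 w, comparisons that share no array, 6 were in both: Clca2, Oga, Rab3d, Lbr, Acp5 and Fam219b. They are 31.6% of the former and 60.0% of the latter. Over all genes, 1791 were in both, or 59.1% of 3028 and 88.1% of 2032. Both shares were smaller among the members than over all genes, a difference that was not tested.

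Set beside the lists of known programmes, few members belonged to any. Of 44 measured squamous differentiation genes 3 were members (Spink5, Calml3 and Pof1b); 36 of the 44 rose and 0 fell at 15 ppm after 4 w, and 21 rose and 0 fell at 10 ppm after 13 w. After 5 d at 15 ppm 4 of the 44 were at least 0.3 below the control, and after 13 w 41 were at least 0.3 above it. The 36 retinoid and nuclear receptor genes held 1 member, Cyp26a1, and 5 rose and 11 fell at 15 ppm after 4 w. Of 37 epithelial transcription factors 13 rose and 6 fell there, neither member of the list (Tp63, Klf3) among them. Of 29 junction and polarity genes 9 rose and 6 fell, and of 14 NADPH and pentose phosphate genes 6 rose and 3 fell. Beside these counts, 21.3% of all genes were called higher and 16.1% lower at 15 ppm after 4 w, and 14.3% and 12.8% at 10 ppm after 13 w. The counts describe the lists, which were chosen with earlier results of these data known.

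Cell type markers also moved in the comparisons on other arrays. At 15 ppm after 4 w 10 of 11 squamous, 7 of 11 basal and 6 of 9 neutrophil markers rose, with 6 of 16 macrophage and 4 of 14 T and NK cell markers. There 4 of 11 ciliated, 4 of 13 secretory and 3 of 8 sustentacular markers fell, with 1 basal and 1 T and NK cell marker, and 1 ciliated marker rose. The shares over all genes were 21.3% higher and 16.1% lower. The summed neutrophil signal was 6.26 to 11.44 against 1.04 to 2.28 kilounits at 0.7 ppm, with 3 and 5 of the 9 neutrophil means under 6. After 13 w at 10 ppm 7 of 11 squamous and 5 of 11 basal markers rose, 1 basal and 5 of 13 secretory markers fell, and 0 of 9 neutrophil markers was called. In that comparison 14.3% of all genes were called higher and 12.8% lower. Summed squamous signal there was 66.42 to 90.12 kilounits against 27.64 to 37.06 kilounits. Tp63 is both a member and a basal marker. RNA integrity numbers were 8.4 to 9.1 at 15 ppm and 8.1 to 8.3 at 0.7 ppm after 4 w, and 8.4 to 8.6 at 10 ppm and 7.9 to 8.4 at 0.7 ppm after 13 w. With the integrity number, or the beta-actin difference, as a covariate, the 10 members that rose at 10 ppm after 13 w became 5. The part of the cell mixture in the members' changes was not tested.

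Some members that lie near each other in the genome are given here, without a test or a background. In the order of the RefSeq genes of GRCr8, the closest pair was Serpinb10 and Serpinb7 on chromosome 13, with 1 protein-coding gene between them. Kprp and LOC102552128 on chromosome 2 were 4 genes apart, Eva1c and Tiam1 on chromosome 11 were 7 apart, and Rab3d and Acp5 on chromosome 8, which both rose in the comparisons above, were 13 apart. On chromosome 20, C20h6orf15 was 37 genes from Ly6g6e and 43 from Rnf39.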

How the data were processed

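Epithelial RNA of 68 rats was hybridised to Affymetrix Rat230_2 arrays, 1 animal per array and 4 per group, grouped by the sample titles. Signals were deposited on the log2 scale after the authors processed the scans with GCOS 1.0 and RMA, per the submitters' processing notes; RMA compresses differences of dim genes. Of 31099 probe sets, 20826 named 1 gene in the platform annotation, 436 several and 9780 none, and 57 were controls. The probe set with the highest mean stood for each of 14217 genes. limma 3.58.1 in R 4.3.3 was fitted to all 68 arrays with 1 mean per group, and moderated two-sided tests were adjusted by Benjamini-Hochberg over all genes. The number of arrays limits the precision.

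The members and lists were chosen with earlier results of these data known. Array values were given for the 10 members with the largest difference between the 15 ppm responses of 13 w and 5 d, for up to 5 called members per comparison and direction, for members of the lists and beside the thresholds; further members described by array, such as Ocm and Scin, were chosen after their values were seen. Alternatives were the scaling between arrays, reference group, probe set rule, groups in the fit, array weights, variance prior, RNA integrity, signal filter and each array left out. Promoters came from a RefSeq table (GRCr8) by gene ID, for 63 of 73 members. Plots used matplotlib 3.10.9.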

Additional observations from a re-analysis of the deposited data

Results flagged for a closer look

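Among the 10 members with the largest difference of responses, 170 groups of 4 arrays were searched for an array far from the other 3 by Dixon's ratio, and 7 (4.1%) had one, where chance gives about 1 in 20. Amelx read 11.951 in animal 362 at 15 ppm after 4 w, against 8.199 to 8.703, and without it the mean lay 0.70 below 0.7 ppm in place of above it. C20h6orf15 read 10.704 in animal 324 at 10 ppm after 5 d, against 11.258 to 11.363. Fads2b read 8.887 in animal 242 at 0.7 ppm after 4 w, against 8.578 to 8.609, and without it the 15 ppm difference was 0.34. LOC102552128 read 6.425 in animal 208 at 0 ppm after 5 d, against 4.411 to 4.606, and without it the gene would not have met the rule, at -0.15. It also read 6.526 in animal 299 at 6 ppm after 5 d, against 4.212 to 4.521. Them5 read 8.418 in animal 358 at 15 ppm after 5 d, against 6.801 to 7.055, and without it the difference from 0 ppm was -1.11. Them5 also read 8.508 in animal 317 at 6 ppm after 13 w, against 7.916 to 7.996.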

How the results depend on the processing

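No paired analysis was possible because each animal gave 1 array, the animal numbers differ in every group and no label pairs animals. The rule gave 73 members, 14 with a step of 0.5 and 183 with a step of 0.2. The counts of members called moved as follows, and the cause was not tested. At 10 ppm after 5 d, where 0 were called, averaging a gene's probe sets gave 1 lower and 2 higher; 1 was higher with the 0.7 and 2 ppm reference, with only the groups of the contrast, with RNA integrity as a covariate or with the 0 ppm reference, and 2 without the arrays that lack an integrity number. After 4 w at that dose, 3 were lower with the 0.7 and 2 ppm reference and 0 with the mean of probe sets or only the groups of the contrast; 1 was higher with cyclic loess, the 0.7 and 2 ppm reference or RNA integrity, 2 with the mean of probe sets and 3 with array weights. After 13 w at it, 4 were lower with array weights and 0 with the 0 ppm reference, and 5 were higher with arrays centred on their medians, RNA integrity or the beta-actin difference. In the change of the 10 ppm response between 5 d and 13 w, 1 was higher with cyclic loess, the 0.7 and 2 ppm reference or array weights. The covariate of beta-actin and the arrays left out for their integrity number were chosen after seeing the data. With each array left out in turn, the members called higher ran from 11 to 22 at 15 ppm after 4 w, 4 to 9 at 10 ppm after 13 w, 0 to 2 at 10 ppm after 4 w, 0 to 3 at 10 ppm after 5 d and 0 to 1 in the change of response. Those called lower ran from 0 to 1 at 15 ppm and at 10 ppm after 4 w and from 2 to 3 at 10 ppm after 13 w, and stayed at 0 at 10 ppm after 5 d and in the change of response.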

Other observations

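Ambn, the enamel protein ameloblastin and no member, spanned 7.57 to 14.30 over the 68 arrays, and Amelx 5.54 to 14.51. At 15 ppm after 13 w Ambn read 10.38, 11.73, 12.55 and 14.29, against 7.57, 10.18, 11.07 and 11.24 at 0 ppm. Slc15a1, just outside the rule at 5 d with a single high 0 ppm array, read 6.74, 6.75, 7.25 and 7.55 at 15 ppm after 13 w. These lay above the 0 ppm arrays of that time at 4.82, 4.88, 5.08 and 5.38.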
